A study of Mus musculus with 65 samples.

Results

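The high mobility group (HMG) protein genes Hmga2, Hmgb1, Hmgb2, Hmgb3, Hmgn1 and Hmgn2 were followed across single cells of the embryonic mouse cortex. They were taken by name from the counts table, and all 6 were present among its 11971 genes. Their counts were scaled to CPM, that is, to a fixed total of reads in genes, in each of the 65 cells. The cells came from cortical hemispheres of C57BL/6J embryos at E13.5, with the ganglionic eminences removed and the brains of all embryos pooled, and living cells were sorted 1 by 1 for full-length cDNA. All were labelled neural progenitor cells, and no genotype or treatment sets any of them apart.

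HMG proteins are abundant, non-histone components of chromatin. The HMGB proteins carry a pair of HMG boxes that bend DNA, the HMGN proteins bind nucleosomes and counteract compaction by linker histone H1, and the HMGA proteins bind the minor groove of AT-rich DNA through AT hooks. In the mouse brain Hmga2 is known as a gene of fetal neural stem cells whose transcript is a target of the let-7 microRNAs, and Hmgb2 is known as a gene of dividing cells.

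The labels name no classes, so cells were placed by 1 gate gene each at 10 CPM. Neurons were the 16 cells with Neurod6, a transcription factor of excitatory cortical neurons. Ccnb1 cells were the 22 other cells with Ccnb1, the cyclin that drives entry into mitosis. Ccnb1 also reached 10 CPM in 4 of the 16 neurons. Progenitors were the 6 cells with Sox2, a transcription factor of neural stem cells, that had neither Ccnb1 nor Neurod6. The remaining 21 cells passed none of these gates. Because 16 of the 22 Sox2 cells also had Ccnb1, the 6 progenitors are a small class, and all 22 Sox2 cells were therefore used as a further class, chosen after the data had been seen. No gate gene had a value between 5 and 10 CPM in any cell.

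The classes were checked against markers other than their gates. Tbr1, which marks early-born excitatory neurons, reached 10 CPM in 14 of 16 neurons, in 0 of 22 Ccnb1 cells and in 0 of 6 progenitors. Doublecortin (Dcx), a microtubule protein of young neurons, did so in 15 neurons, 2 Ccnb1 cells and 3 progenitors. Pax6, a transcription factor of cortical radial glia, did so in 3 neurons, 16 Ccnb1 cells and 1 progenitor. Of 13 progenitor markers, neurons had a median of 3 at 10 CPM, Ccnb1 cells 8 and progenitors 5.5, so that the 6 progenitors held fewer of them than the Ccnb1 cells. In addition, 2 of the 6 progenitors were interneuron-type cells, having at least 3 of 8 ventral forebrain and interneuron genes at 10 CPM. Red blood cell genes, of which 4 of 5 were measured, summed to 0 to 1090 CPM in neurons, 0 to 1484 CPM in Ccnb1 cells and 0.287 to 5613 CPM in progenitors, and 1 Ccnb1 cell had 5 of 6 mural and meninges genes; their part in the levels below was not tested. The label neural progenitor covered the 16 Neurod6 neurons as well.

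Cells had from 85338 to 32130629 reads in genes, with medians of 13317944.5 in neurons, 20210964.5 in Ccnb1 cells and 8529981 in progenitors, and the shallowest cell was a progenitor. In that cell 1 read amounts to 11.7 CPM and passes 10 CPM, and its Hmgb3, Hmgn1 and Dcx were each at 1 read. Titles part the cells into sets 1, 2 and 3, with 31, 13 and 21 members and no stated meaning, and neurons numbered 11, 2 and 3, Ccnb1 cells 12, 2 and 8, and progenitors 1, 4 and 1 in these sets. No animal is named, so each class is 1 sample from 1 pool, cells are not replicates, and no test was made: values below give the spread across cells, and comparisons between classes are descriptions. Ratios between classes are log2((mean CPM + 1)/(mean CPM + 1)), with the first-named class on top, and 2-fold is the size counted as a difference. CPM are not scaled by gene length, so levels are compared between classes and not between genes.

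The promoters of 4 members are shown because these genes differed in how closely they followed the cell cycle genes described below. Each line gives the 250 bases upstream of the RefSeq start, read 5′ to 3′ on the gene's own strand (RefSeq, GRCm38.p6), at chr8:57511593-57511842 (plus strand) for Hmgb2, chrX:71555667-71555916 (plus) for Hmgb3, chr5:149053058-149053307 (minus) for the first of the Hmgb1 starts and chr4:133967992-133968241 (minus) for Hmgn2. Capitals mark CCAAT, the letters bound by NF-Y, and TTTGAA, the letters of the cell cycle genes homology region (CHR) found in many genes of G2 and mitosis, on either strand, where the second reads TTCAAA.
Hmgb2: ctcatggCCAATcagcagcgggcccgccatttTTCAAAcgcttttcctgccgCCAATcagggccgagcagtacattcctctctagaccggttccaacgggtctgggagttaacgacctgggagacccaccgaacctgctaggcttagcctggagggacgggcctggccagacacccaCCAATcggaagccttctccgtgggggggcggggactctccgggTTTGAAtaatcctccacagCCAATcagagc
Hmgb3: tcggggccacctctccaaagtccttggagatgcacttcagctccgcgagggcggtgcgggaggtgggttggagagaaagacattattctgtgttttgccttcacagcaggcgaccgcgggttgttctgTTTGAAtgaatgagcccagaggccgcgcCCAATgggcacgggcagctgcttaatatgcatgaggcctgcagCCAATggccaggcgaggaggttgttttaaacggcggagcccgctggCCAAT
Hmgb1: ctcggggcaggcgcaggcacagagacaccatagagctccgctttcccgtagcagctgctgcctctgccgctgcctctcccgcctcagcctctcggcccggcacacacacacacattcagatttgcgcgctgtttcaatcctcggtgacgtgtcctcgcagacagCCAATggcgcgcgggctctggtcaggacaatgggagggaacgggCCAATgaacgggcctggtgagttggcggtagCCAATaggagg
Hmgn2: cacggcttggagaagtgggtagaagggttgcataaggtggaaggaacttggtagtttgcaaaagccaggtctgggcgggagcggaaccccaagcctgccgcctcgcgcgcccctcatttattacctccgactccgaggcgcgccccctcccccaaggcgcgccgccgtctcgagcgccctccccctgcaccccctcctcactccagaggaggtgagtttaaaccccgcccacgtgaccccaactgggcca

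The Hmgb2 window held 4 matches to CCAAT and 2 to TTTGAA, the nearer of which lay 30 to 25 bases before the start. Among 32851 promoter windows of the same length, 0.840% held at least 4 CCAAT matches and 1.81% held at least 2 TTTGAA matches, and 5.55% held both motifs. The Hmgb3 window held 3 and 1 matches and that of the first Hmgb1 start 3 and 0. At least 3 CCAAT matches were found in 2.79% of all windows, and at least 1 TTTGAA match in 15.99%. The Hmgn1 window held 2 CCAAT matches and no TTTGAA, a count of CCAAT reached by 10.1% of all windows. The windows of Hmga2, Hmgn2 and the second Hmgb1 start held neither motif. The matches do not overlap each other, and a match is a description of letters and not of binding. Spearman rho with the number of mitosis genes, given below, was 0.78 for Hmgb2, 0.59 for Hmgb1 and 0.51 for Hmgn2. For Hmga2 it was 0.48, for Hmgb3 0.26 and for Hmgn1 -0.00042. A relation of the motifs to the HMG levels was not tested.

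Hmgb2, which encodes a DNA-bending HMG-box protein, had the lowest log2 ratio of the 6 members in neurons over Ccnb1 cells. Neurons ranged from 0.0784 to 3813 CPM with a median of 91.5 CPM, Ccnb1 cells from 101.8 to 3299 CPM with a median of 1733 CPM, and progenitors from 304.7 to 1764 CPM with a median of 990.1 CPM. At 10 CPM or more, Hmgb2 was found in 11 of 16 neurons (68.8%, exact 95% interval 41.3% to 89.0%), in 22 of 22 Ccnb1 cells (lower bound 84.6%) and in 6 of 6 progenitors (lower bound 54.1%). Thus 5 neurons were at or below 1.44 CPM of Hmgb2, while every Ccnb1 cell and progenitor was above 100 CPM. The class ranges overlapped, and 1 neuron was above the highest Ccnb1 cell. The mean was 538.9 ± 1077 CPM in neurons and 1741 ± 897.4 CPM in Ccnb1 cells (SD across 16 and 22 cells), a log2 ratio of -1.69, and the difference between these means was larger than the SD of either class. Against 1535 ± 845.9 CPM in all 22 Sox2 cells, the log2 ratio of neurons was -1.51, and against 1006 ± 469.9 CPM in the 6 progenitors it was -0.90.

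The 2 neurons with at least 16 of the 32 listed mitosis genes at 10 CPM were also the 2 highest in Hmgb2, at 2477 and 3813 CPM. Ccnb1 was at 1660 CPM in the first of them and at 0.116 CPM in the second. The other 14 neurons ranged from 0.0784 to 1023 CPM, with a median of 32.4 CPM and a mean of 166.6 CPM. The mean of all neurons thus rested largely on those 2 cells. Splitting the neurons instead by Eomes, the transcription factor of intermediate progenitors, gave a median of 259.2 CPM (0.684 to 3813) in the 10 neurons with Eomes and of 7.16 CPM (0.0784 to 234.5) in the 6 without it. The 10 include the 2 cells with most mitosis genes, which had 509.5 and 366.3 CPM of Eomes and 1.43 and 756.3 CPM of Dcx. These 2 cells were called neurons by the Neurod6 gate, as all 16 were. Every neuron had at least 6 of 11 listed neuron markers, Neurod6 among them, at 10 CPM. Title set 1 held 8 of the 10 neurons with Eomes and 3 of the 6 without it.

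Within the title sets, Hmgb2 medians were 234.5 CPM in neurons and 1734 CPM in Ccnb1 cells of set 1, 1.25 and 1384 CPM in set 2, and 26.1 and 1733 CPM in set 3. The neuronal level was thus the lower one in each set, with log2 ratios of the means of -1.23, -9.27 and -4.41. Sets 2 and 3 held only 2 and 3 neurons.

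Hmga2, the AT-hook gene, was also lower in neurons but varied widely within each class. Neurons ranged from 0 to 551.0 CPM with a median of 40.8 CPM, Ccnb1 cells from 0 to 1893 CPM with a median of 414.4 CPM, and progenitors from 0 to 546.0 CPM with a median of 201.5 CPM. It reached 10 CPM in 9 of 16 neurons (56.3%, exact 95% interval 29.9% to 80.2%), 18 of 22 Ccnb1 cells (81.8%, 59.7% to 94.8%) and 4 of 6 progenitors (66.7%, 22.3% to 95.7%). Cells under 10 CPM of Hmga2 were thus found in every class, and the intervals of these shares overlap. Among progenitors they were the shallowest cell, with 85338 reads and 0 CPM, and an interneuron-type cell with 0.0486 CPM. The latter had 1543 CPM of Dcx. The mean was 153.2 ± 208.8 CPM in neurons and 485.8 ± 515.1 CPM in Ccnb1 cells (SD), a log2 ratio of -1.66, and the means differed by less than the SD among Ccnb1 cells. Against 456.9 ± 509.6 CPM in all Sox2 cells the log2 ratio was -1.57, and against 229.2 ± 228.3 CPM in the 6 progenitors -0.58.

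Title sets differed in Hmga2 as well. In set 1 the median was 140.0 CPM in neurons and 637.0 CPM in Ccnb1 cells, in set 3 it was 58.1 and 206.2 CPM, and in set 2 it was 0.0657 and 16.8 CPM. The median of Ccnb1 cells was above that of neurons in each set, with overlapping ranges in sets 1 and 3. The 2 Ccnb1 cells of set 2 had only 4.99 and 28.6 CPM. Of the 6 progenitors, which had 0, 0.0486, 114.8, 288.3, 425.9 and 546.0 CPM, 4 belonged to set 2. Over all 65 cells the median was 165.0 CPM in set 1, 4.99 CPM in set 2 and 75.4 CPM in set 3.

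Hmgb1, an HMG-box gene whose product also acts as an alarm signal outside cells, had reads in all 65 cells. Neurons ranged from 401.1 to 7844 CPM with a median of 3923 CPM, Ccnb1 cells from 3493 to 10153 CPM with a median of 6093 CPM, and progenitors from 1137 to 4953 CPM with a median of 4139 CPM. Neurons and progenitors thus lay at similar medians, and Ccnb1 cells above both, with overlapping ranges. The mean was 3913 ± 2115 CPM in neurons and 6097 ± 1830 CPM in Ccnb1 cells, a log2 ratio of -0.64, short of 2-fold. The 2 neurons with most mitosis genes, at 7430 and 7844 CPM, had the highest Hmgb1 levels of all neurons. The symbol table lists 14 copies named after Hmgb1, of which Hmgb1-rs17 was in the counts table with 0.259 reads per 100 Hmgb1 reads, and how reads of the other copies were counted is not stated. The table names 2 copies of Hmgn2 and 1 of Hmgb3 as well, and Hmga2-ps1 had 0.0698 reads per 100 Hmga2 reads.

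Hmgn2, a nucleosome-binding member, had its highest class median in Ccnb1 cells. Neurons ranged from 443.6 to 9984 CPM with a median of 2802 CPM, Ccnb1 cells from 2320 to 7917 CPM with a median of 5832 CPM, and progenitors from 2144 to 5283 CPM with a median of 3469 CPM. The neuronal range reached below and above that of either other class. The mean was 3247 ± 2539 CPM in neurons and 5597 ± 1653 CPM in Ccnb1 cells, a log2 ratio of -0.79, and the difference was within the SD among neurons. Title sets differed, since the mean was 2897 CPM in the 2 neurons and 2438 CPM in the 2 Ccnb1 cells of set 2 (log2 ratio 0.25), against ratios of -0.77 and -1.10 in sets 1 and 3. The highest neuronal value, 9984 CPM, was in the same cell as the highest neuronal Hmgb2 and Hmgb1 values.

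Hmgb3, the X-linked HMGB gene, was present at 10 CPM in 13 of 16 neurons, 21 of 22 Ccnb1 cells and 5 of 6 progenitors. Neurons ranged from 0 to 2017 CPM with a median of 419.6 CPM, Ccnb1 cells from 0.285 to 2456 CPM with a median of 1167 CPM, and progenitors from 0.243 to 1161 CPM with a median of 216.9 CPM. The ranges overlapped almost entirely, and the low progenitor median rested on 6 cells at 0.243, 11.7, 34.9, 398.8, 948.4 and 1161 CPM. The value of 11.7 CPM was a single read in the shallowest cell. The mean was 678.3 ± 690.2 CPM in neurons and 1184 ± 678.7 CPM in Ccnb1 cells, a log2 ratio of -0.80, with a difference smaller than either SD. Within the neurons, the 10 with Eomes had a median of 898.4 CPM (73.3 to 2017) and the 6 without it a median of 23.5 CPM (0 to 464.3). Title set 1 held 8 of the 10 and 3 of the 6. The Hmgb3 median of neurons was 849.9, 40.9 and 281.4 CPM in sets 1, 2 and 3, and the part of the sets in this split was not tested.

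Hmgn1, the other nucleosome-binding member, was the one gene of the 6 whose mean was not lower in neurons than in Ccnb1 cells. Neurons ranged from 16.8 to 1416 CPM with a median of 539.0 CPM, Ccnb1 cells from 3.70 to 1347 CPM with a median of 357.8 CPM, and progenitors from 11.7 to 2235 CPM with a median of 747.9 CPM. The mean was 583.5 ± 394.4 CPM in neurons and 443.7 ± 359.5 CPM in Ccnb1 cells, a log2 ratio of 0.39, and the means differed by less than the SD of either class. Within title sets 1, 2 and 3 it was 661.9, 702.1 and 217.0 CPM in neurons and 542.4, 780.8 and 211.2 CPM in Ccnb1 cells. The neuronal mean was thus the lower one in set 2. Hmgn1 differed more between title sets than between classes. Its median was 526.0 CPM in set 1, 866.6 CPM in set 2 and 159.5 CPM in set 3 over all cells of each set, and 4 of the 6 progenitors came from set 2.

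**Figure D1:**
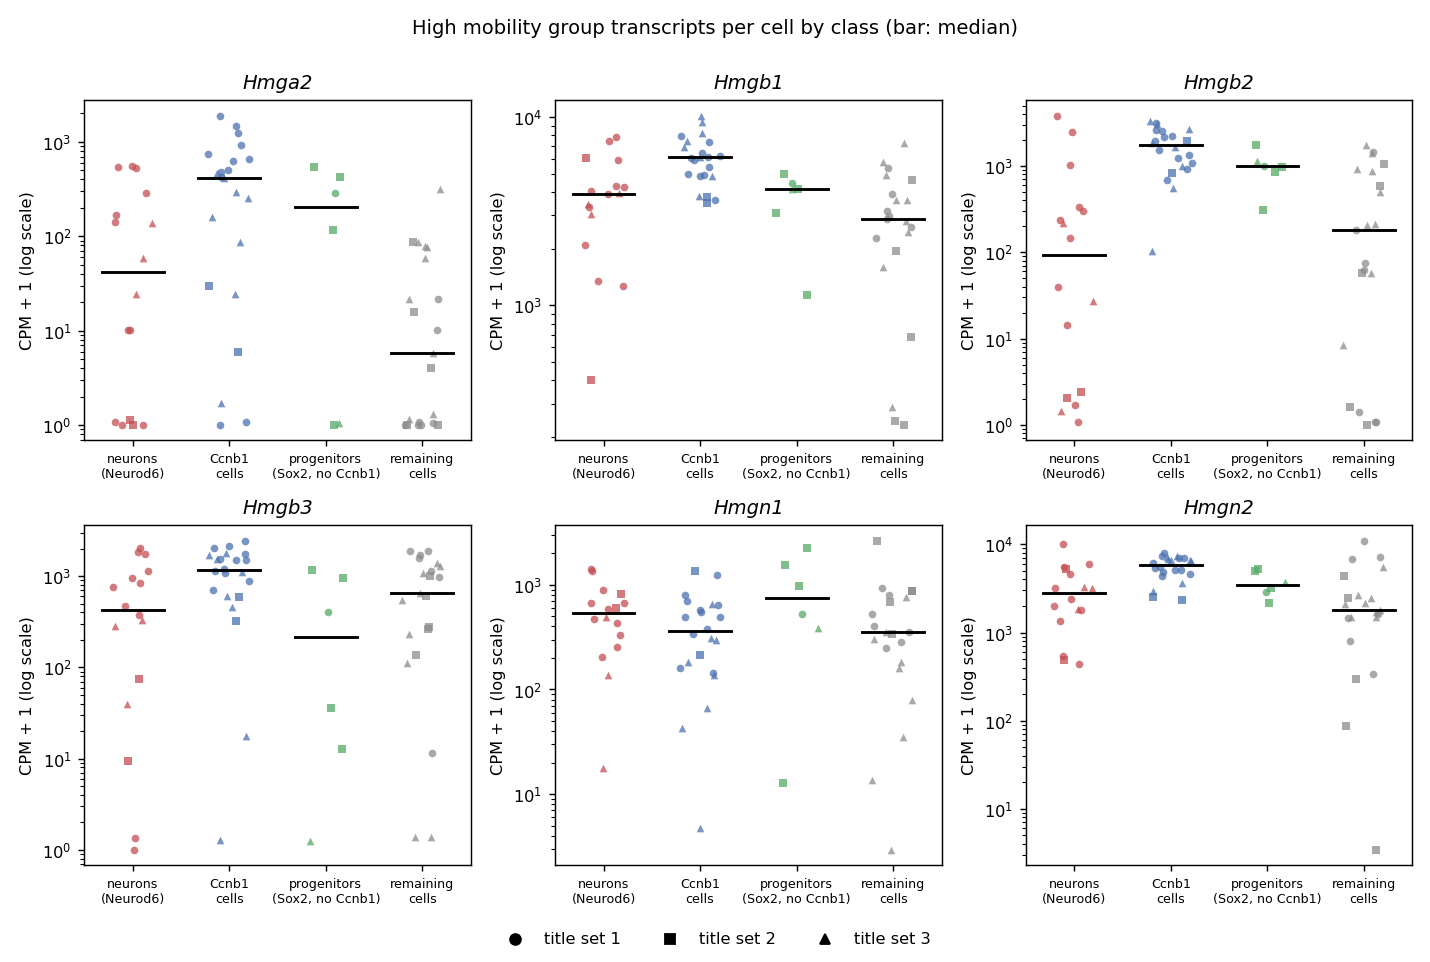
Level of each HMG gene in each cell, as CPM + 1 on a log axis, for the 16 neurons, 22 Ccnb1 cells, 6 progenitors and 21 remaining cells; point shapes show the title set and bars the class median. Hmgb2 medians are 91.5 CPM in neurons, 1733 CPM in Ccnb1 cells and 990.1 CPM in progenitors, while Hmgn1 medians are 539.0, 357.8 and 747.9 CPM in the same classes.

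The members were then set beside all 8377 genes with a mean of at least 10 CPM, counting genes past 2-fold in the ratio of class means. Of the 6 members, 2, Hmga2 and Hmgb2, were lower by 2-fold or more in neurons than in Ccnb1 cells, where 30.9% of all genes were. The same 2 were lower in neurons than in all Sox2 cells, where 31.3% of genes were. The median log2 ratio of the 6 members was -0.79 against Ccnb1 cells and -0.55 against all Sox2 cells, beside medians of -0.20 and -0.19 for all genes. Both comparisons use the same neurons, 16 of the Sox2 cells are also Ccnb1 cells, and both were added after the data had been seen. A share of 2 in 6 is close to the background share, so the count does not set the HMG genes apart.

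Against the 6 progenitors, 0 of 6 members were lower in neurons by 2-fold or more, where 25.2% of genes were, and the median log2 ratio of the members was -0.38, beside 0.43 for all genes. In Ccnb1 cells over progenitors, Hmga2 (log2 ratio 1.08) and Hmgb3 (1.47) were higher by 2-fold or more, where 45% of genes were, and Hmgn1 was lower (-1.09), where 21.1% were. Hmgb1 (0.74), Hmgb2 (0.79) and Hmgn2 (0.60) were higher by less than 2-fold. These 2 comparisons share the 6 progenitors, of which 4 came from title set 2. In set 2 alone, the log2 ratio of Ccnb1 cells over progenitors was -3.94 for Hmga2 and -0.24 for Hmgb3, the opposite direction, with 2 Ccnb1 cells and 4 progenitors.

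**Figure D2:**
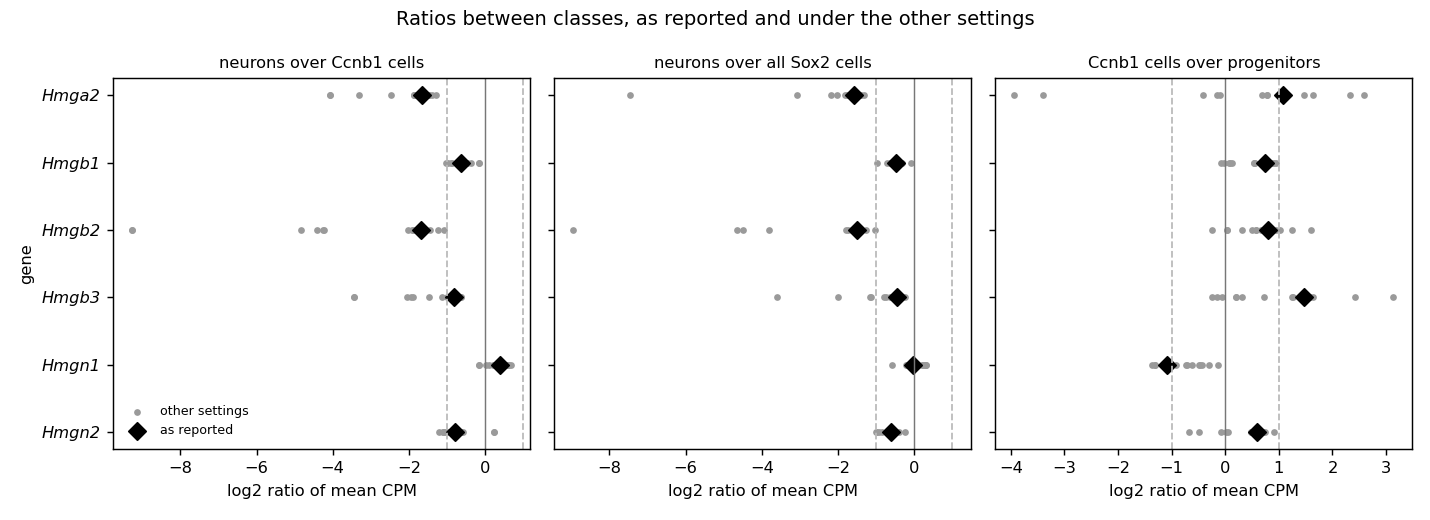
Log2 ratio of class means for each HMG gene (rows) in 3 comparisons (panels); black diamonds are the values reported, grey points the same ratio under the other settings, and dashed lines mark 2-fold. Hmga2 and Hmgb2 stay below -1 in every setting for neurons over Ccnb1 cells and over all Sox2 cells, whereas the Hmga2 ratio of Ccnb1 cells over progenitors takes both signs.

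The relation to the cell cycle was described with lists of 26 replication genes and 32 mitosis genes that hold no HMG gene and not Ccnb1. Neurons reached 10 CPM for a median of 2.5 mitosis genes (0 to 29), Ccnb1 cells for 15 (1 to 30) and progenitors for 8 (4 to 13). Replication genes numbered 0 to 15 in neurons with a median of 4, and 3 to 24 in Ccnb1 cells with a median of 13. In progenitors they numbered 2 to 24, with a median slightly above that of Ccnb1 cells. In ratios of means, 26 of 32 mitosis genes and 23 of the 25 replication genes that averaged at least 10 CPM were lower by 2-fold or more in neurons than in Ccnb1 cells, beside 30.9% of all genes. Against progenitors, 23 of these 25 replication genes were lower by 2-fold or more in neurons. Of the 32 mitosis genes, 10 were lower and 9 higher. In Ccnb1 cells over progenitors, 2 of the 25 replication genes were higher by 2-fold or more and 6 lower. Of the 32 mitosis genes, 19 were higher and 2 lower. The classes thus differ in cell cycle state together with cell type, and the part of either in the HMG levels was not tested.

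Across the 65 cells, Hmgb2 had the highest Spearman rho of the 6 members with the number of mitosis genes, 0.78, and it was 0.79, 0.91 and 0.55 in title sets 1, 2 and 3. Its rho with the number of replication genes was 0.65. For Hmgb1 the rho with mitosis genes was 0.59, for Hmgn2 0.51, for Hmga2 0.48, for Hmgb3 0.26 and for Hmgn1 -0.00042. Within sets 1, 2 and 3 it was 0.64, 0.39 and 0.12 for Hmgn2 and 0.31, 0.05 and 0.04 for Hmgb3, close to 0 for Hmgb3 in sets 2 and 3. In the same sets it was 0.70, 0.65 and 0.43 for Hmgb1 and 0.47, 0.59 and 0.34 for Hmga2. With replication genes, Hmga2 (0.53) came after Hmgb2, followed by Hmgb1 (0.48), Hmgn2 (0.45), Hmgb3 (0.35) and Hmgn1 (-0.09). Points share libraries, depth and title set. With reads per cell the rho was 0.38 for Hmgb1, 0.31 for Hmgb2, 0.27 for Hmga2 and Hmgn2, 0.22 for Hmgb3 and -0.37 for Hmgn1, although within sets Hmgn1 gave 0.06, 0.14 and 0.05.

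Grouping all cells by these lists gave the same order for Hmgb2. The 12 cells with at least 16 mitosis genes, 2 of them neurons and 10 Ccnb1 cells, had a median of 2498 CPM (1240 to 3813). The 16 cells with at least 13 replication genes and fewer mitosis genes had a median of 1216 CPM (177.8 to 3020). The 37 cells below both marks had a median of 101.8 CPM (0 to 1767). The cells with many mitosis genes were thus above most other cells in Hmgb2, though the ranges overlapped. For Hmgb1 the 3 medians were 6553, 5405 and 3322 CPM, for Hmgn2 6402, 4771 and 2171 CPM, and for Hmga2 437.5, 290.9 and 14.9 CPM in the same order of cells. Hmgb3 followed with 1447, 1020 and 464.3 CPM. Hmgn1 stood apart with 580.5, 357.8 and 405.4 CPM.

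**Figure D3:**
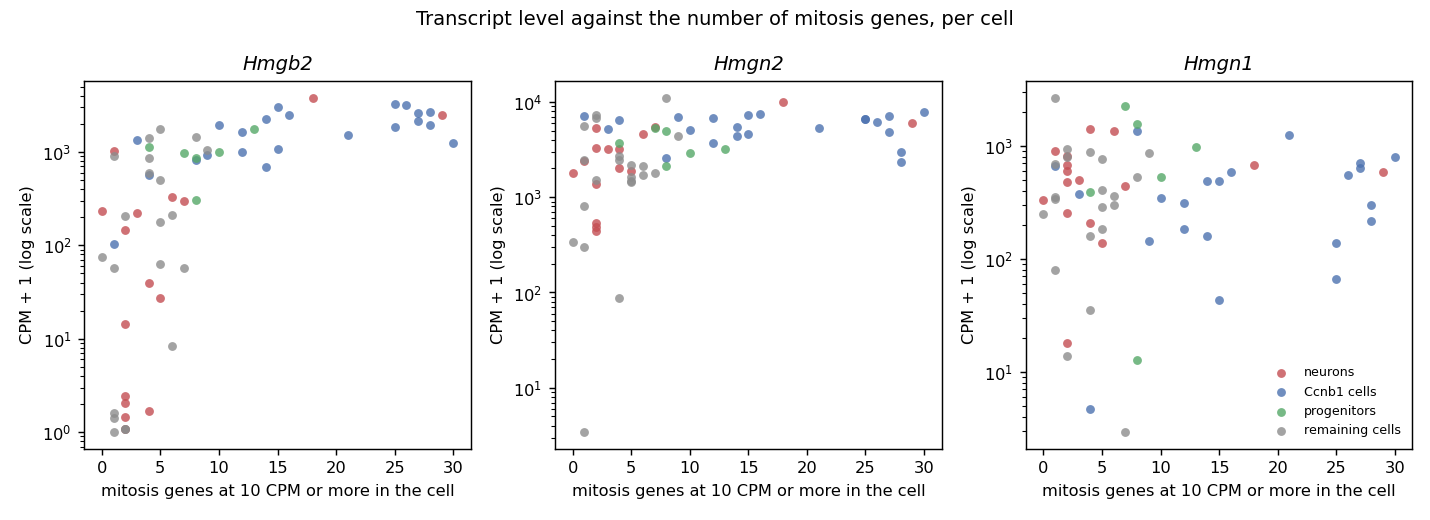
CPM + 1 on a log axis for Hmgb2, Hmgn2 and Hmgn1 against the number of 32 mitosis genes at 10 CPM or more, 1 point per cell coloured by class. All 12 cells with at least 16 mitosis genes lie between 1240 and 3813 CPM of Hmgb2, while Hmgn1 shows no slope (Spearman rho -0.00042).

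Among the members, Hmgb1, Hmgb2 and Hmgn2 varied together from cell to cell. Spearman rho of log2(CPM + 1) over 65 cells was 0.73 for Hmgb1 with Hmgn2, 0.71 for Hmgb1 with Hmgb2 and 0.56 for Hmgb2 with Hmgn2. Hmga2 was nearest to Hmgb2 at 0.49, and Hmgb3 to Hmgn2 at 0.43. Hmgn1 lay between -0.06 and 0.19 with the other members. Over the 8376 other genes of mean CPM 10 or more, the rho with Hmgb2 had a median of 0.06 and a 95th percentile of 0.37, so that Hmgb1, Hmgn2 and Hmga2 lay above that percentile in their rho with Hmgb2, and Hmgb3 (0.35) and Hmgn1 (-0.03) below it. Within Ccnb1 cells alone, Hmgb1 with Hmgn2 gave 0.37, Hmgb1 with Hmgb2 0.31 and Hmgb2 with Hmgn2 0.14, and within neurons the same pairs gave 0.66, 0.61 and 0.53.

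**Figure D4:**
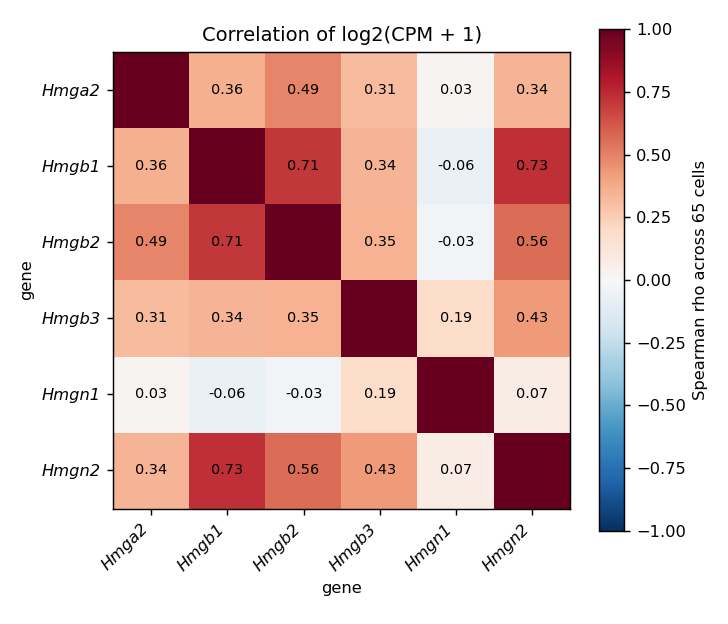
Spearman rho of log2(CPM + 1) between each pair of the 6 HMG genes across 65 cells, with colour from -1 to 1. Hmgb1, Hmgb2 and Hmgn2 form the highest values (0.56 to 0.73), and the row of Hmgn1 lies between -0.06 and 0.19.

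The genes most like each member across the 65 cells, with a positive rho in every title set, were listed 5 per member, leaving out the other members, whose rho values are given above. For Hmgb2 they were Smc4 (rho 0.70), a condensin subunit that compacts mitotic chromosomes, Ckap2 (0.70), a spindle protein, the histone variant gene H2afz (0.69), Cdca8 (0.68), a subunit of the chromosomal passenger complex, and Cks2 (0.68), a partner of cyclin-dependent kinases. For Hmgb1 they were H2afz (0.78), the nuclear transport GTPase gene Ran (0.64), the histone chaperone gene Set (0.61), the copy Hmgb1-rs17 (0.60) and Ptges3 (0.58), an Hsp90 co-chaperone. For Hmgn2, outside the members, H2afz (0.55) came before the mitochondrial chaperone gene Hspd1 (0.54), the translation factor gene Eef1a1 (0.52), 2700094K13Rik (0.52) and Tsfm (0.51), a mitochondrial translation factor gene. H2afz thus stood among the 5 nearest such genes of 3 of the 6 members.

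For Hmga2 the nearest genes were the centromere protein gene Cenpm (0.59), Pa2g4 (0.58), Hn1l (0.56), Nudt2 (0.56) and Alms1 (0.54), a gene of the centrosome and ciliary base. For Hmgb3 they were Timeless (0.57), a replication fork protein gene, the brain creatine kinase gene Ckb (0.54), Pitpnc1 (0.53), Btf3l4 (0.50) and the spliceosome gene Snrpd3 (0.49). For Hmgn1 they were Lars2 (0.65), a mitochondrial leucyl-tRNA synthetase gene, the actin-binding profilin gene Pfn1 (0.52), Ube2s (0.51), Rab1b (0.49) and Thtpa (0.48). The rho of Lars2 with Hmgn1 was below its pooled value in each set, at 0.48, 0.33 and 0.23 in sets 1, 2 and 3.

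Other chromatin-shaping genes were taken from a list of 37 HMG-box, HMGN, linker histone, heterochromatin, CTCF and cohesin genes, of which 34 were measured and 29 averaged at least 10 CPM. In neurons over Ccnb1 cells, 10 of the 29 were lower by 2-fold or more and 0 higher, beside 30.9% of all genes lower and 23.6% higher, and the median log2 ratio was -0.49. The other HMGN genes were among the 10. Hmgn3 averaged 77.5 ± 144.3 CPM in neurons and 340.0 ± 250.7 CPM in Ccnb1 cells (log2 ratio -2.12), and Hmgn5 46.6 ± 110.2 and 206.5 ± 359.8 CPM (-2.12). Hmgn3 and Hmgn5 were thus 4.34-fold and 4.36-fold lower in neurons, while Hmgn1 (0.39) and Hmgn2 (-0.79) stayed under 2-fold.

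Among HMG-box genes outside the 6 members, the Wnt effector genes Lef1 (log2 ratio -1.51), Tcf7l1 (-1.78) and Tcf7l2 (-2.94), Tox (-5.15) and Hmgxb4 (-1.20) were lower by 2-fold or more in neurons than in Ccnb1 cells. These are ratios of means, and the median of each of these genes was under 10 CPM in both classes. In neurons and Ccnb1 cells it was 0 and 0.0961 CPM for Lef1 and 0 and 0.147 CPM for Tcf7l1. For Tcf7l2 it was 0 and 8.42 CPM, for Tox 0 and 0 CPM, and for Hmgxb4 0.0488 and 0.0383 CPM. Ssrp1 (-0.97), a subunit of the FACT histone chaperone, and the mitochondrial DNA packaging gene Tfam (-0.87) stayed under 2-fold, as did Smarce1 (0.51) and Ubtf (0.24). The linker histone genes Hist1h1b (-2.59) and Hist1h1e (-1.22) and the insulator gene Ctcf (-2.89) completed the 10. The Hist1h1e median went the other way, at 4.94 CPM in neurons and 1.26 CPM in Ccnb1 cells. For Hist1h1b the medians of these classes were only 0 and 0.0607 CPM. Cbx3, a heterochromatin protein 1 gene, averaged 2422 ± 959.3 CPM in neurons and 2364 ± 1035 CPM in Ccnb1 cells (0.04), a difference far smaller than the spread among cells.

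The list of 12 genes linked to Hmga2 through let-7, Lin28 or Igf2bp proteins had 9 measured members. In neurons over Ccnb1 cells, 4 of 9 were lower by 2-fold or more and 2 were higher, beside 30.9% of all genes lower and 23.6% higher. Ccnd2, a G1 cyclin gene, averaged 270.7 ± 343.1 CPM in neurons and 960.2 ± 886.1 CPM in Ccnb1 cells (log2 ratio -1.82), and Ccnd1 38.4 ± 93.2 and 180.0 ± 212.5 CPM (-2.20). Mycn (-1.49) and Lin28b (-1.37) were the other 2, and Lin28b averaged only 0.59 ± 2.04 CPM in neurons and 3.11 ± 9.42 CPM in Ccnb1 cells. Igf2bp2, whose product binds RNA and which is a known target of Hmga2 in mouse, was higher, at 130.2 ± 255.3 CPM in neurons and 57.6 ± 96.7 CPM in Ccnb1 cells (1.16), a difference within the SD of neurons. Myc averaged 56.98 ± 125.9 CPM in neurons and 0.279 ± 1.29 CPM in Ccnb1 cells (5.50), again a difference within the SD of neurons. Its medians were 0.513 CPM in neurons and 0 CPM in Ccnb1 cells.

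**Figure D5:**
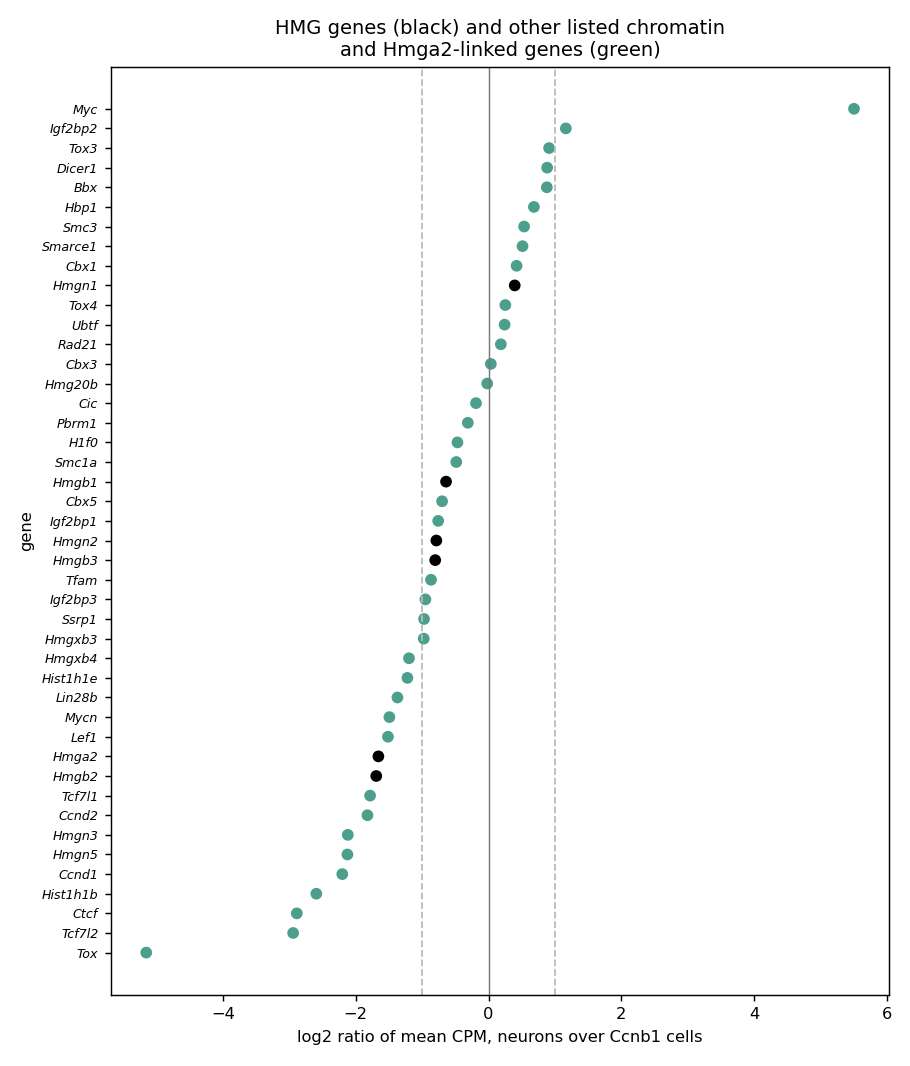
Log2 ratio of mean CPM, neurons over Ccnb1 cells, for the 6 HMG genes (black) and the other listed chromatin and Hmga2-linked genes of mean CPM 10 or more (green); dashed lines mark 2-fold. Hmgb2 (-1.69) and Hmga2 (-1.66) lie past 2-fold on the lower side, Hmgb3, Hmgn2 and Hmgb1 between -0.80 and -0.64, and Hmgn1 at 0.39.

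The 21 remaining cells, 14 of which had Dcx at 10 CPM and 7 of which were interneuron-type, gave a last view of cells outside the gates. Hmgb2 ranged from 0 to 1767 CPM in them with a median of 177.8 CPM, and Hmga2 from 0 to 316.0 CPM with a median of 4.76 CPM. Hmga2 thus had its lowest class median there, and 1 of the 21 cells reached 100 CPM (4.76%, exact 95% interval 0.120% to 23.8%), against 7 of 16 neurons (43.8%, 19.8% to 70.1%), 15 of 22 Ccnb1 cells (68.2%, 45.1% to 86.1%) and 4 of 6 progenitors (66.7%, 22.3% to 95.7%). Hmgb1 had a median of 2871 CPM, Hmgn2 of 1784 CPM, Hmgb3 of 657.9 CPM and Hmgn1 of 353.6 CPM in the remaining cells.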

How the data were processed

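Single cells of the cortex of pooled C57BL/6J embryos were sorted into a SMARTer full-length cDNA kit per the labels' protocols, which keeps neither molecular identifiers nor strand. The authors deposited raw whole-number counts of reads for 11971 genes and 65 cells, and TopHat2, HTSeq and mm9 are named, without versions, per the submitters' processing notes. Every gene had reads in at least 5 cells, and no 2 cells held identical values.

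Counts were scaled to CPM by each cell's total (85338 to 32130629 reads) and logged as log2(CPM + 1). Classes used a gate of 10 CPM, and ratios of class means were called at 2-fold among 8377 genes averaging 10 CPM or more. With 1 pool of embryos, no p-value was made from cells. Intervals of shares are exact (Clopper-Pearson, 95%) and were made from numbers of cells. They hold counting error alone: they take cells as independent draws and leave out any spread between animals. In addition, PCR reads are not independent molecules. Doublets were not called, the cells having been sorted singly. Calculations used Python 3.11.15, pandas 2.3.3 and scipy 1.17.1, and scran 1.30.0 in R 4.3.3 for alternative size factors. The calculation of ratios was also run on simulated data. There genes varied independently and no title sets were included, so the run cannot speak to differences between sets or cell states. Alternatives changed the scaling, the class summary, the gates, the cells and the title sets. The genes named were the members, the listed genes, and for each member the 5 genes, other members left out, of highest Spearman rho with a positive rho in every title set. The members and lists were chosen with earlier results of these data known. Promoters and copies were matched by symbol to RefSeq tables of GRCm38.p6, which found all 6 members. Hmga1, Supt16h, Tox2, Lin28a and Trim71 of the lists were not analysed here. A further entry of the chromatin list is not reported here.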

Additional observations from a re-analysis of the deposited data

How the results depend on the processing

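The counts of members lower by 2-fold or more in neurons than in Ccnb1 cells and than in all Sox2 cells, 2 in each, held Hmga2 and Hmgb2 in every alternative tried. For neurons over Ccnb1 cells the count was 4 with class medians, with means of log2(CPM + 1) and with Tbr1 as the neuron gate, 5 in title set 3, and 3 in set 2 and with overlapping classes in sets 2 and 3. For neurons over progenitors it was 0 as reported, 1 with means of log2 values, the Tbr1 gate, cells of at least 1000000 reads, thinning to 1000000 reads, no interneuron-type cells or neurons without Ccnb1, and 2 with medians or with all Sox2 cells as progenitors. It was 3 in title set 2, and 2, 3 and 3 with all Sox2 cells in sets 1, 2 and 3. For Ccnb1 cells over progenitors the count of higher members was 2 as reported, 1 in cells of at least 1000000 reads, after thinning or without interneuron-type cells, and 0 with overlapping classes, in set 2, and with overlapping classes in each set. Overlapping classes share 16 cells, which pulls their ratio towards 0. Ratios whose sign turned, with the value on either side past 2-fold, were Hmgb3 in neurons over progenitors (-3.69 in set 2, -3.61 and -2.0 with overlapping classes in sets 2 and 3), Hmga2 in Ccnb1 cells over progenitors (-3.94 in set 2, -0.10 with overlapping classes, and -0.41, -3.40 and -0.15 with these in sets 1, 2 and 3) and Hmgb3 in the same comparison (-0.24 in set 2, -0.16 and -0.059 with overlapping classes in sets 2 and 3). The cause was not tested. Of the member ratios under the alternatives, 40 passed 2-fold and 16 no longer did with no turn of sign. The sign turned in 48 of the 432, the 11 given and 37 with both values under 2-fold. Among these 37, Hmgb1 in neurons over progenitors turned in 11 settings (lowest -0.98), Hmgn1 in neurons over all Sox2 cells in 8 (highest 0.30), and Hmgn2 in neurons over Ccnb1 cells in 2 (0.25, set 2). Comparisons with progenitors in sets 1 and 3 were not run, since each set held 1 progenitor. Leaving out the 2 cells with mural and meninges genes, chosen after seeing the data like the split by set with overlapping classes and the neurons without Ccnb1, changed none of the counts. No paired analysis was possible because all cells form 1 group from 1 pool of embryos.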

Other observations

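Cells of other lineages gave their own levels of the HMG genes. The 10 interneuron-type cells, which had at least 3 of 8 ventral forebrain and interneuron genes at 10 CPM, ranged from 0 to 114.8 CPM of Hmga2, and 2 of the 10 reached 10 CPM. Their Hmgb2 ranged from 0.0734 to 1456 CPM with a median of 191.2 CPM, and their Hmgn2 from 338.6 to 11041 CPM with a median of 4353 CPM, and 1 of them had the highest Hmgn2 value of any cell. Of these cells, 6 belonged to title set 1, 2 to set 2 and 2 to set 3.

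The 2 cells with at least 3 of 6 mural and meninges genes at 10 CPM, 1 of them a Ccnb1 cell, had the 2 lowest Hmgn1 values of the 65 cells, 3.70 CPM in the Ccnb1 cell and 1.94 CPM in the other. Their Hmgn2 was 6497 and 1784 CPM and their Hmga2 23.4 and 4.76 CPM in the same order. Both belonged to title set 3, where the median of Hmgn1 was 159.5 CPM.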
